A study of Mus musculus with 8 samples.

Results

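Photoreceptors of the retina signal light through a channel in the outer segment that is opened by cyclic GMP, and the calcium that enters through it is pumped out by a sodium, potassium and calcium exchanger. The transcripts of these proteins were examined in retinas of wild-type (WT) mice and of mice labelled as Kv8.2 knockouts (KO). The genes were the listed symbols Cnga1, Cngb1, Cnga3, Cngb3, Slc24a1 and Slc24a2, and all 6 were found among the 26824 genes of the count table. Kv8.2, encoded by Kcnv2, is a potassium channel subunit of photoreceptors that forms no channel alone. There were 3 WT and 5 KO libraries, each of 2 pooled retinas from untreated mice aged 1 month, kept on a daily light and dark cycle. The labels do not give the strain, the sex or how the knockout was made, and the 2 KO samples that the authors left out of their own test are not named, so all 8 libraries were compared.

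In the dark, cyclic GMP holds the channel open, and sodium and calcium flow in. Light lowers cyclic GMP, the channel closes, the exchanger goes on removing calcium, and the fall of calcium drives the recovery of the cell. Rods build the channel from CNGA1 and CNGB1 and use the exchanger NCKX1 (Slc24a1). Cones build it from CNGA3 and CNGB3 and use NCKX2 (Slc24a2), which other neurons express as well. The alpha subunits can form a channel by themselves, while the beta subunits tune it. The gene Cngb1 also gives rise to short glutamic-acid-rich proteins (GARPs) of the rod outer segment, and a count per gene does not separate them from the channel subunit.

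The genes differ in base composition, a property along which their values in some libraries are ordered below, so a coding stretch of each channel subunit is printed here. Each stretch is the first run of 60 coding bases within 1 exon, read 5′ to 3′ in the longest GENCODE M21 transcript, whose share of G and C comes closest to that of the whole coding sequence. Capitals mark G and C, and positions are on GRCm38.
Cngb3 (coding bases 16 to 75, exon 1 of 18, chr4:19280948-19281007, plus strand): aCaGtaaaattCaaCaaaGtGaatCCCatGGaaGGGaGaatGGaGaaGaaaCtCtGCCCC
Cnga1 (coding bases 25 to 84, exon 2 of 9, chr5:72619035-72619094, minus strand): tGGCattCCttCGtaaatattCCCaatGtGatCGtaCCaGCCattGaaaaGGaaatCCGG
Cnga3 (coding bases 28 to 87, exon 2 of 6, chr1:37232272-37232331, plus strand): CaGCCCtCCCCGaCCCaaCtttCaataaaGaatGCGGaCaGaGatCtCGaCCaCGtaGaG
Cngb1 (coding bases 40 to 99, exon 2 of 33, chr8:95303731-95303790, minus strand): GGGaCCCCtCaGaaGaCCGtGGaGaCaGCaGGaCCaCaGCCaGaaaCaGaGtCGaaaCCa
Within each channel the subunits thus differ: the Cngb3 and Cnga1 stretches hold 26 G or C of 60 bases each, that of Cnga3 holds 32 and that of Cngb1 holds 35. Over whole transcripts, taken as the median of the coding transcripts of a gene, the GC content was 39.9% for Cngb3, 42.6% for Cnga1, 49.8% for Slc24a2, 50.01% for Slc24a1, 54.6% for Cnga3 and 58.0% for Cngb1. Among the 22121 genes matched in the annotation, 6.3% lay below Cngb3 and 89.7% lay below Cngb1.

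The libraries held 17759146 to 25188870 counts, so that 3 counts correspond to 0.13 to 0.164 CPM (CPM is the count scaled to library size, here with edgeR's trimmed mean of M values), and none of the 6 genes was near that floor. Gnat1, the rod transducin subunit and a defining marker of retina, had a mean of 8446 CPM in WT. Kcnv2 was present in every library, at 519 to 550 CPM in WT and 398 to 584 CPM in the libraries labelled KO, and did not pass the test with all libraries (log2 fold change -0.24, edgeR adjusted p-value 0.275). For KO 4 to KO 6, all at 398 to 409 CPM and below every WT library, Kcnv2 was called lower (-0.39, edgeR adjusted p-value 0.000101), also after the GC offset (-0.33, edgeR adjusted p-value 0.000341). KO 2 was above every WT library in Kcnv2, so the groups are called by their labels. Libraries KO 4, KO 5 and KO 6 stood apart from the other 5: mitochondrial genes took 3.03% to 3.70% of their counts against 5.23% to 7.92% elsewhere. In KO 3 the lens marker list took 4.46% of counts, against at most 0.13% in any other library. In bulk tissue, fewer cells of a type and less RNA per cell cannot be told apart.

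With all 8 libraries, none of the 6 genes passed the main test between KO and WT, neither a channel subunit nor an exchanger. The quasi-likelihood test of edgeR, adjusted by Benjamini-Hochberg over 20167 genes, called 0 of the 6 at an adjusted p-value under 0.05, against a background of 7.58% of genes (4.74% higher and 2.84% lower in KO). At an unadjusted p-value under 0.05 there were also 0 (27.3% over all genes), DESeq2 called 0 (background 15.5%), and limma voom with library weights called 3 (Cnga1, Cnga3 and Cngb3, background 40.9%). Their median log2 fold change was -0.0034, against 0.00073 over all tested genes. For each gene the KO and WT libraries overlapped, while 10.8% of tested genes were higher and 10.1% were lower in every KO library than in every WT library.

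**Figure D1:**
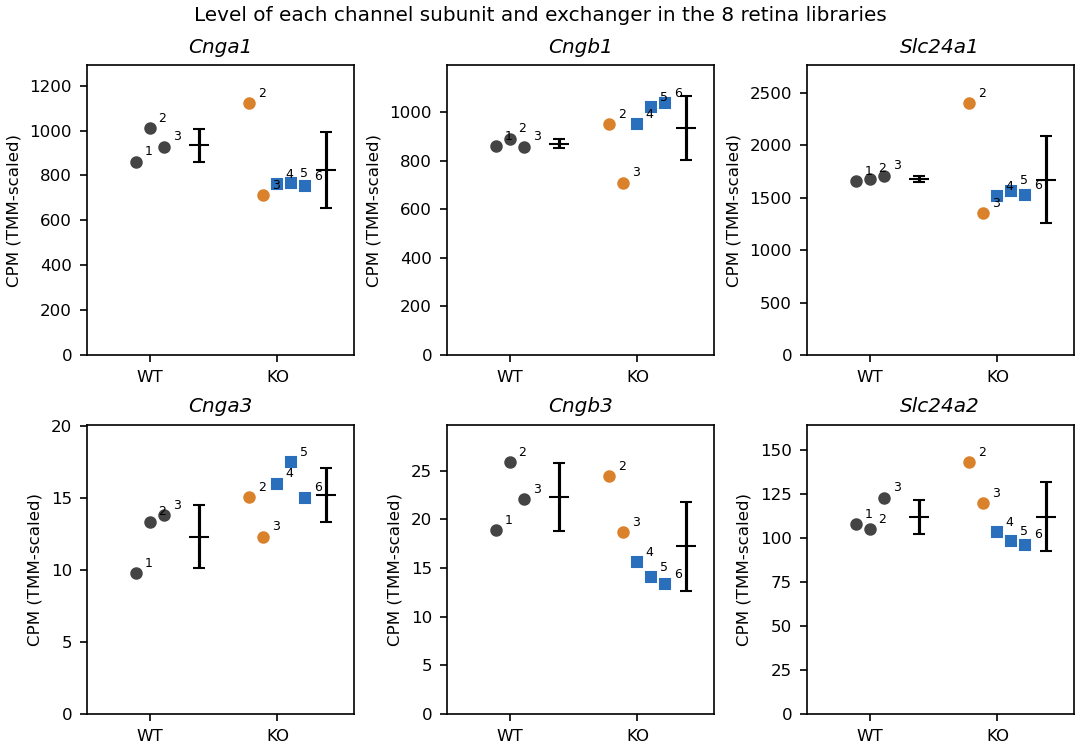
TMM-scaled CPM of each gene (vertical axis, from 0) in 3 WT libraries (grey circles) and 5 KO libraries (orange circles KO 2 and KO 3, blue squares KO 4 to KO 6), with library numbers beside the points and the mean ± SD at the right of each group. In Cnga1, Cngb3, Slc24a1 and Slc24a2 KO 4 to KO 6 lie below every WT library, and in Cngb1 and Cnga3 they lie above every WT library. KO 2 is highest in Cnga1, Slc24a1 and Slc24a2.

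Cnga1 (ENSMUSG00000067220, chr5:72603696-72644275, minus strand) encodes the subunit that forms the pore of the rod channel. The WT libraries 1 to 3 had 862, 1011 and 929 CPM. In KO 2 to KO 6 it was 1123, 712, 763, 766 and 751 CPM. Thus 1 KO library was the highest of all and the other 4 lay below every WT library. Mean levels were 934 ± 74.7 (WT, SD, n = 3) and 823 ± 169 CPM (KO, SD, n = 5), with a log2 fold change of -0.18 (SE 0.15, edgeR adjusted p-value 0.474). Without KO 2, where 13.9% of all genes were called, its log2 fold change was -0.32 and was called (edgeR adjusted p-value 0.0415, in a range of 0.00298 to 0.964 over 33 alternative fits).

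Cngb1 (ENSMUSG00000031789, chr8:95239045-95306585, minus strand) encodes the modulatory rod subunit and the GARP proteins. It was at 861, 892 and 858 CPM in WT 1 to WT 3. The values were 950, 710, 951, 1021 and 1038 CPM in KO 2 to KO 6. Here 4 KO libraries lay above every WT library and KO 3, the library with lens transcripts, lay below them all. The log2 fold change was 0.10 (SE 0.13, edgeR adjusted p-value 0.650), between 870 ± 18.6 CPM (WT, SD, n = 3) and 934 ± 132 CPM (KO, SD, n = 5). It was 0.19 and not called without KO 3 (edgeR adjusted p-value 0.111), and 0.0017 without KO 5 and KO 6. In KO 4 to KO 6 Cngb1 was thus above and its partner Cnga1 below every WT library.

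Slc24a1 (ENSMUSG00000034452, chr9:64922861-64951607, minus strand), the rod exchanger, had the highest counts of the 6 genes. In WT 1 to WT 3 it was at 1655, 1681 and 1711 CPM, the tightest WT values relative to their mean. In KO 2 to KO 6 it was at 2403, 1354, 1515, 1568 and 1523 CPM. As for Cnga1, KO 2 was above every WT library and the other 4 KO libraries were below. Mean levels were 1682 ± 27.9 (WT, SD, n = 3) and 1673 ± 416 CPM (KO, SD, n = 5), a log2 fold change of -0.0084 (SE 0.17, edgeR adjusted p-value 0.980). KO 2 also had the highest and KO 3 the lowest summed level of the rod marker list, at 50490 and 34020 CPM, against 39030 to 42480 CPM in WT and 42920 to 47060 CPM in KO 4 to KO 6. Ratios of the rod genes to this list are given further on, and its part in the levels was not tested.

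Cnga3 (ENSMUSG00000026114, chr1:37214434-37263384, plus strand) encodes the pore-forming cone subunit. It was at 9.80, 13.4 and 13.8 CPM in WT 1 to WT 3, on 179 to 312 counts. The KO libraries had 15.1, 12.4, 16.03, 17.5 and 15.1 CPM in the order KO 2 to KO 6. All of them but KO 3 exceeded the highest WT library, and WT 1 was the lowest of all. The log2 fold change was 0.30 (SE 0.15, edgeR adjusted p-value 0.234), between 12.3 ± 2.21 CPM (SD, n = 3) and 15.2 ± 1.88 CPM (SD, n = 5). Its size varied, at 0.16 without WT 1, 0.15 with the GC offset and 0.0055 in the replicate block of 4 libraries. Over 33 alternative fits the sign was that with all libraries in 33 for Cnga3, 32 for Cngb3, 30 for Cnga1, 27 for Cngb1, 19 for Slc24a2 and 18 for Slc24a1.

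Cngb3 (ENSMUSG00000056494, chr4:19280850-19510623, plus strand) encodes the modulatory cone subunit. WT 1 to WT 3 had 18.9, 25.9 and 22.1 CPM. KO 2 and KO 3 had 24.5 and 18.7 CPM, and KO 4 to KO 6 had 15.6, 14.0 and 13.3 CPM. The first 2 KO libraries were within or just below the WT range and the other 3 were below it. Its log2 fold change was -0.37 (SE 0.20, edgeR adjusted p-value 0.249), between 22.3 ± 3.50 CPM (WT, SD, n = 3) and 17.2 ± 4.53 CPM (KO, SD, n = 5). It had the largest difference of the 6 genes with all libraries and no GC offset. With the GC offset it was -0.0505 (edgeR adjusted p-value 0.855), smaller in size than Cnga3 (0.147) and Cngb1 (-0.119). Without KO 2 and with no offset, Cngb3 was at -0.53 and was called, against the same 13.9% of all genes (edgeR adjusted p-value 0.0460, in a range of 0.000893 to 0.905 over 33 alternative fits).

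Slc24a2 (ENSMUSG00000037996, chr4:86983124-87230477, minus strand) encodes the cone exchanger. It was at 108, 105 and 123 CPM in WT 1 to WT 3 and at 143, 120, 103, 98.1 and 96.2 CPM in KO 2 to KO 6. KO 2 was above and KO 4 to KO 6 below all WT libraries. Mean levels were 112 ± 9.60 (WT, SD, n = 3) and 112 ± 19.6 CPM (KO, SD, n = 5), and edgeR gave a log2 fold change of 0.0017 (SE 0.14, adjusted p-value 0.995). Ganglion cell markers, another possible source of this transcript, summed to 1088 to 1194 CPM in WT and 1060 to 1479 CPM in KO, highest in KO 2, and 0 of the 8 were called (7.58% over all genes). Their part in the level of Slc24a2 was not tested.

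The intervals show how large a change these data allow. The 95% interval of the KO over WT fold was 0.695 to 1.12 for Cnga1, 0.879 to 1.31 for Cngb1, 0.764 to 1.29 for Slc24a1 and 0.814 to 1.23 for Slc24a2. For the cone subunits it was 0.973 to 1.56 for Cnga3 and 0.572 to 1.05 for Cngb3. Each interval includes 1, and none reaches a doubling or a loss to 0.5 of the WT level.

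**Figure D2:**
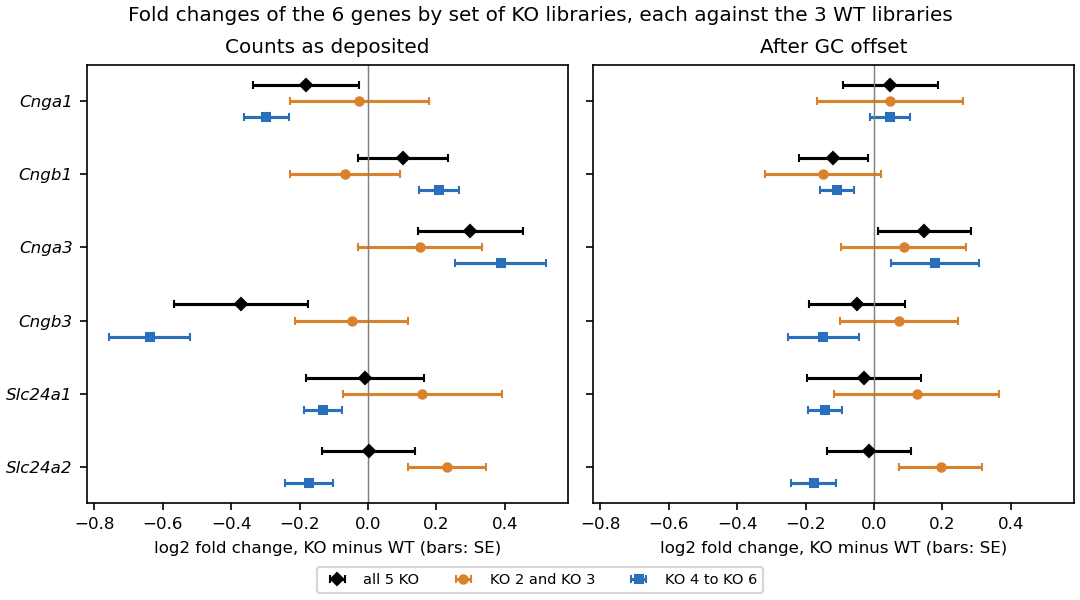
Log2 fold change of each gene (horizontal axis, bars show the SE) for all 5 KO libraries, for KO 2 and KO 3 and for KO 4 to KO 6, each against the same 3 WT libraries, from the counts as deposited (left) and after an offset for GC content (right). For KO 4 to KO 6 the values span -0.64 to 0.39 on the left and -0.18 to 0.18 on the right.

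Which of the 6 genes were called differed with the set of KO libraries. For KO 4 to KO 6 against WT, edgeR called 4: Cnga1 (log2 fold change -0.30, adjusted p-value 0.00298) and Cngb3 (-0.64, adjusted p-value 0.000893) fell, and Cngb1 (0.21, adjusted p-value 0.0125) and Cnga3 (0.39, adjusted p-value 0.0317) rose. In that comparison 42.8% of all tested genes were called (21.7% higher and 21.1% lower in KO), and the 4 of 6 are to be read against that share. Slc24a1 (-0.13, edgeR adjusted p-value 0.0796) and Slc24a2 (-0.17, edgeR adjusted p-value 0.0638) did not pass. For KO 2 and KO 3 against the same WT libraries, 0 of the 6 genes were called by edgeR, with 0.891% of all genes called, and 0 were under an unadjusted p-value of 0.05 (19% over all genes). There the log2 fold changes were -0.025 for Cnga1, -0.068 for Cngb1, 0.16 for Slc24a1, 0.15 for Cnga3, -0.048 for Cngb3 and 0.23 for Slc24a2. With the offset for GC content described next, 0 of the 6 were called for KO 2 and KO 3 either (background 0.862%), and Cnga1 (0.048) and Cngb3 (0.073) had the opposite sign. Both comparisons share the WT libraries. No WT library resembled KO 4 to KO 6 in its mitochondrial share, so in those libraries that property and the KO label cannot be told apart.

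The direction in KO 4 to KO 6 followed the order of base composition. The GC-poor genes Cngb3 and Cnga1 were lower, the GC-rich genes Cnga3 and Cngb1 were higher, and the 2 exchangers near the middle had the values closest to 0. Genes are not replicates, but as a description over 17672 of them the rank correlation (Spearman) of a gene's GC content with its fold change was 0.525 for KO 4 to KO 6, 0.174 for KO 2 and KO 3 and 0.453 for all libraries (the last 2 over 18043 and 18028 genes).

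**Figure D3:**
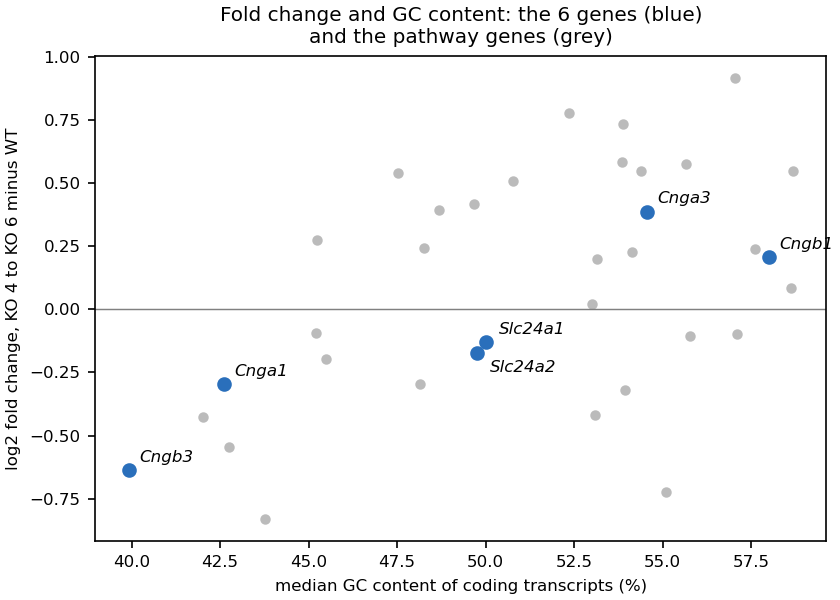
Log2 fold change of KO 4 to KO 6 against WT (vertical axis) over the median GC content of a gene's coding transcripts in percent (horizontal axis), for the 6 genes (blue, named) and the genes of the 5 pathway lists that were tested (grey). The blue points run from Cngb3 at 39.9% and -0.64 to Cngb1 at 58.0% and 0.21, with Cnga3 highest at 0.39.

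A smooth curve over GC content, fitted in each library to the genes' log2 CPM relative to their mean over the libraries, gave the deviation that goes with composition, which can also hold any group or library difference that varies with it. At the GC content of Cngb3 this curve stood at 0.204, 0.243 and 0.197 in WT 1 to WT 3 and at -0.204, -0.323 and -0.324 in KO 4 to KO 6. At that of Cngb1 it stood at -0.114, -0.147 and -0.139 in WT and at 0.106, 0.196 and 0.209 in KO 4 to KO 6. For the 2 exchangers it stayed between -0.026 and 0.046 in every library. With the curve as an offset, the log2 fold changes of KO 4 to KO 6 were 0.047 for Cnga1, -0.11 for Cngb1, 0.18 for Cnga3 and -0.15 for Cngb3, with edgeR adjusted p-values of 0.587, 0.113, 0.317 and 0.307. All 4 calls were thus absent after the offset, while 33.4% of genes were called. Slc24a1 (log2 fold change -0.14) was then called lower, at an edgeR adjusted p-value of 0.0457. With the offset and all libraries, edgeR called 0 of the 6 genes (background 6.55%) and 0 were under an unadjusted p-value of 0.05 (24.8% over all genes). The signs of Cnga1 and Cngb1 turned, to 0.048 and -0.12.

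Within a library, the ratio of counts of 2 genes does not depend on scaling. The log2 ratio of Cnga1 to Cngb1, pore to modulatory subunit of the rod channel, was 0.002, 0.182 and 0.115 in WT 1 to WT 3. KO 2 had 0.242 and KO 3 had 0.004, while KO 4, KO 5 and KO 6 had -0.319, -0.414 and -0.467. The last 3 libraries lay below all others, KO 3 was within the WT range and KO 2 above it. The mean difference was -0.29 (exact permutation test, two-sided, p = 0.25, adjusted over 11 ratios 0.344). After GC correction it was 0.16 (exact permutation p = 0.107), with -0.067, -0.011 and -0.012 for KO 4, KO 5 and KO 6, 0.128 for KO 2, -0.152 for KO 3 and -0.253 to -0.137 over WT.

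The cone pair showed the same split in the other direction. The log2 ratio of Cnga3 to Cngb3 was -0.945, -0.95 and -0.674 for WT 1 to WT 3, -0.696 for KO 2 and -0.595 for KO 3. It reached 0.036, 0.318 and 0.176 for KO 4, KO 5 and KO 6, so that Cnga3 exceeded Cngb3 in counts in those 3 libraries and in no other. The mean difference was 0.70 (exact permutation p = 0.0714, adjusted 0.196), and 0.21 after GC correction (exact permutation p = 0.179). The corrected values of KO 4, KO 5 and KO 6 were -0.237, -0.144 and -0.264, nearer to the others but still above all of them (-0.658 to -0.378). With 3 against 5 libraries the smallest possible two-sided p-value is 0.0357, as computed here, and at 11 ratios no single ratio can pass adjustment by itself. The remaining ratios of this kind, Slc24a1 over Cnga1 (difference 0.16), Slc24a2 over Cnga3 (-0.32) and Cnga3 over Cnga1 (0.51), had exact permutation p-values of 0.0714, 0.25 and 0.0714 and adjusted ones of 0.196, 0.344 and 0.196. After GC correction these differences were -0.093, -0.186 and 0.128, so that of Slc24a1 over Cnga1 turned its sign.

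**Figure D4:**
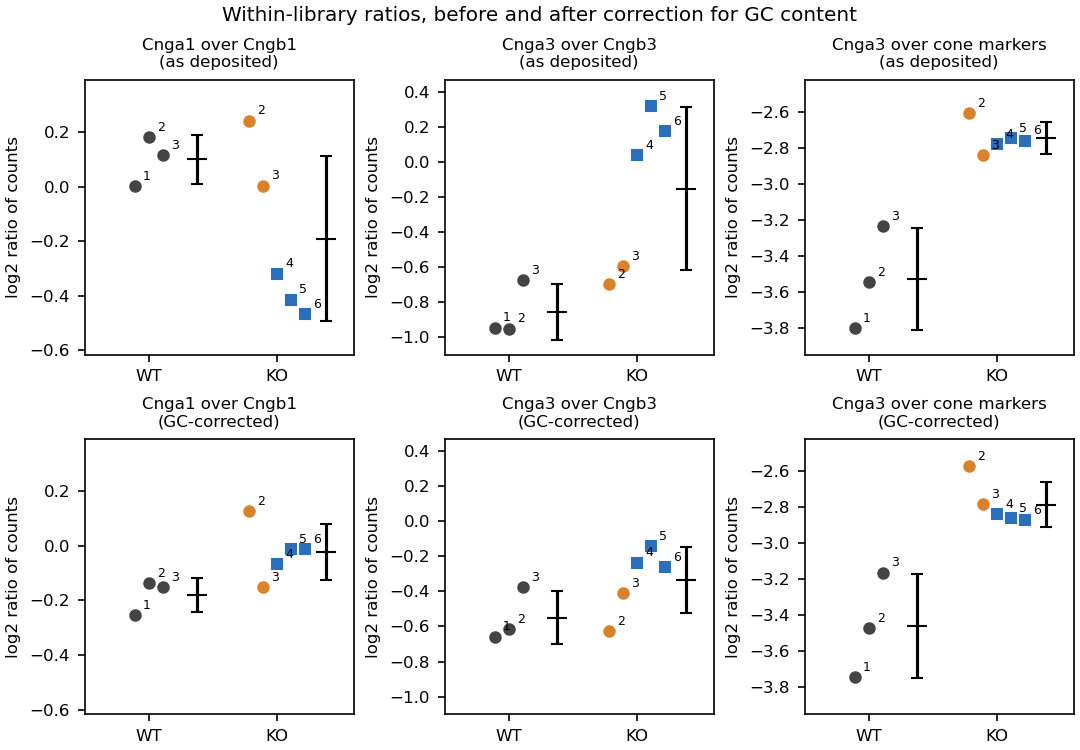
Log2 ratios of counts within each library (vertical axis) for Cnga1 over Cngb1, Cnga3 over Cngb3 and Cnga3 over the mean of the 5 cone markers, as deposited (top) and after GC correction (bottom), with WT in grey, KO 2 and KO 3 in orange, KO 4 to KO 6 in blue and the mean ± SD at the right of each group. In the right-hand panels every KO library lies above every WT library in both rows.

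Relative to the mean of 5 cone markers, Cnga3 was higher in every KO library than in every WT library, while relative to Cngb3 the groups overlapped. The cone marker list (Opn1sw, Opn1mw, Arr3, Gnat2 and Gngt2: opsins, arrestin and transducin subunits) summed to 703 to 920 CPM in WT and 478 to 650 CPM in KO. Of its 5 genes, 2 fell (Gnat2 -0.47 and Gngt2 -0.60 in log2 fold change, edgeR adjusted p-values 0.0318 and 0.0254), 0 rose, and the median was -0.58, against 2.84% of all genes called lower and 4.74% higher. Opn1sw (-0.58), Arr3 (-0.72) and Opn1mw (0.046) did not pass. Both calls were lost without any 1 WT library, KO 4 or KO 6, and that of Gnat2 also without KO 5, with edgeR adjusted p-values up to 0.164 and 0.117 and the same sign in all 8 fits. The log2 level of Cnga3 over the mean of this list was -3.801, -3.548 and -3.236 in WT. It was -2.606, -2.842, -2.781, -2.745 and -2.76 in KO 2 to KO 6. Every KO library lay above every WT library, and the KO values were closer together than the WT values. The mean difference was 0.78 (1.72-fold, SDs 0.283 in WT and 0.087 in KO), with an exact permutation p-value of 0.0357, the smallest possible, and 0.196 after adjustment. It was 0.805 for KO 2 and KO 3, 0.766 for KO 4 to KO 6, 0.675 after GC correction and 0.77 with the median of the list. Cnga3 itself had a log2 fold change of 0.30 and was not called. The cone gene Pde6c, outside the list, was at 0.51, so this ratio depends on the cone genes listed.

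For Cngb3 over the cone markers the difference was 0.078 (exact permutation p = 0.821), with 0.59 in KO 2 and KO 3 and -0.27 in KO 4 to KO 6. After GC correction it was 0.46, and every KO library (-2.717 to -1.948) lay above every WT library (-3.089 to -2.787), with an exact permutation p-value of 0.0357 and 0.131 after adjustment. For Slc24a2 it was 0.46 (exact permutation p = 0.107), with 0.87 in KO 2 and KO 3 and 0.19 in KO 4 to KO 6.

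Among rod genes the ratios to the 7 rod markers (among them Nrl, Nr2e3, Gnat1, Sag, Gngt1 and Reep6) overlapped between the groups. The difference was -0.23 for Cnga1 (exact permutation p = 0.179), 0.057 for Cngb1 (exact permutation p = 0.464) and -0.072 for Slc24a1 (exact permutation p = 0.643). The rod list was itself uneven: Sag rose (0.87) and Gngt1 fell (-0.90), its median was 0.12, and 5 of 7 genes did not pass (over all genes 4.74% were called higher and 2.84% lower). The calls of Sag and Gngt1 were lost without any 1 WT library or KO 4, that of Gngt1 also without KO 5 (edgeR adjusted p-values up to 0.0973 and 0.120), and after the GC offset Gngt1 was at -0.41 and did not pass (edgeR adjusted p-value 0.0738). With the median of the list in place of its mean, Cngb1 was higher by 0.40 (exact permutation p = 0.0357), and after GC correction lower by -0.11 (exact permutation p = 0.0357, adjusted 0.131), so no direction is given for it. Signs of the others turned too: Cnga1 was at 0.11 with the list median and 0.044 after GC correction, and Slc24a1 at 0.27 with the list median.

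Per length, levels of the 6 genes can be compared with each other. With the median length of the coding transcripts, WT levels were 415 ± 33.2 CPM per kb for Cnga1, 366 ± 7.83 for Cngb1 and 323 ± 5.35 for Slc24a1 (SD, n = 3). They were 50.4 ± 4.33 for Slc24a2, 5.77 ± 1.03 for Cnga3 and 4.73 ± 0.743 for Cngb3. The rod genes were thus far above the cone genes, and Slc24a2 lay between them. Cnga3 and Cngb3 were close in level, and the separate SDs leave out that both genes were measured in the same libraries. With the longest transcript instead, Cngb1 came to 141 and Slc24a2 to 10.6 CPM per kb, Cnga1 to 341 and Cnga3 to 3.47, so the place of Slc24a1 relative to Cngb1 and that of Cnga3 relative to Cngb3 depend on the transcript assumed. Cngb1 has 6 coding transcripts in the annotation, of 536 to 6189 bases, and Slc24a2 has 5, of 504 to 10531 bases. At most 1.57% of the 31-base words of any of the 6 genes (Cnga3) occur in another gene, and no other gene overlaps their exons.

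Upstream sequences were searched for TAATCC, the core word bound by photoreceptor homeodomain factors such as CRX, on both strands of the 250 bases before each gene start in RefSeq (GRCm38.p6). Windows were given for 5 of the 6 genes, 7 windows in all, and the word was found in 2 of the 7, 1 for each rod channel subunit. Of all 32851 windows 6.25% held it, and 7.21% of all genes had it in at least 1 window. The stretches that hold it are shown because these subunits form one channel, with the word in capitals.
Cngb1 (positions -78 to -1 from the gene start, chr8:95306586-95306663, minus strand): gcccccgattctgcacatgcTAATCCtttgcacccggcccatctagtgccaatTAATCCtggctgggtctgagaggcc
Cnga1 (positions -248 to -203, chr5:72642955-72643000, minus strand): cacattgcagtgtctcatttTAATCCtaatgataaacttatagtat
Cngb1 holds the word at -58 and -25 and Cnga1 at -228. These positions are from the RefSeq start, and the Cnga1 stretch lies inside the gene span of GENCODE M21 (chr5:72603696-72644275). No data on binding were measured here, and a match describes the letters only.

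Among the 6 genes, Cnga1 and Slc24a1 had the most alike profiles, with a root mean square difference of 0.104 between their centred log2 CPM over 8 libraries. Cnga3 and Cngb3, the cone partners, were the least alike, at 0.477. Cnga1 and Cngb1 were at 0.26. Among 14230 other genes of at least 1 in mean log2 CPM, the nearest to Cnga1 were Tmem38a (0.052) and Zmat2 (0.0753), and to Cngb1 Ptdss2 (0.0352) and Prph2 (0.044), a protein of the disc rim. Nearest to Slc24a1 were Mgll (0.0694) and Gnb1 (0.0769), to Slc24a2 Zyg11b (0.036) and Tmod2 (0.0378), to Cnga3 Nr2c2ap (0.0843) and Coro1a (0.089), and to Cngb3 Nt5dc1 (0.0461) and A830018L16Rik (0.0657).

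Of 7 other sodium-calcium exchangers, edgeR called 1 higher and 0 lower, and 6 did not pass (over all genes 4.74% were called higher and 2.84% lower). Their median log2 fold change was 0.22 against 0.00073 over all tested genes. Among them DESeq2 called 3 higher and 1 lower (background 15.5%), and limma voom 4 and 2 (background 40.9%). The one called by edgeR was Slc24a4, encoding NCKX4, an exchanger also known from mouse cones. Slc24a4 was at 43.0, 40.6 and 52.5 CPM in WT 1 to WT 3 and at 71.1, 56.5, 73.6, 74.7 and 85.1 CPM in KO 2 to KO 6. Every KO library exceeded every WT library, the log2 fold change was 0.67 (SE 0.13, edgeR adjusted p-value 0.0216), and after the GC offset it was 0.58 (edgeR adjusted p-value 0.0227). For KO 2 and KO 3 alone it was 0.49 and did not pass (edgeR adjusted p-value 0.138). Slc24a5, named after its values were seen, was lower in every KO library than in every WT library, at 3.85 to 4.60 CPM in WT and 1.74 to 3.56 CPM in KO. Its log2 fold change of -0.71 was not called by edgeR (adjusted p-value 0.0758), nor after the GC offset, at -0.53 (edgeR adjusted p-value 0.163). Slc8a2 (0.43) and Slc8b1 (0.68), also named after their values were seen, were not called by edgeR either (adjusted p-values 0.0818 and 0.0813). All 3 were called, in these directions, by DESeq2 (adjusted p-values 0.0246 to 0.0378, background 15.5%), by limma voom (0.00111 to 0.00313, background 40.9%) and by edgeR for KO 4 to KO 6 (0.000319 to 0.00788, background 42.8%). With the GC offset on KO 4 to KO 6, Slc8b1 was still called (0.63, edgeR adjusted p-value 0.00505), and Slc24a5 (-0.55) and Slc8a2 (0.22) were not (edgeR adjusted p-values 0.0714 and 0.0600). Of 4 plasma membrane calcium pumps, which extrude calcium at the cell body and terminal, 2 rose, 0 fell, and all 4 were higher in every KO library than in every WT library (over all genes 4.74% were called higher and 10.8% were higher in every KO library). Atp2b2 was at 110, 108 and 125 CPM over WT 1 to WT 3 and at 157, 127, 186, 190 and 194 CPM over KO 2 to KO 6, with a log2 fold change of 0.58 (edgeR adjusted p-value 0.0391). Against WT it was 0.32 for KO 2 and KO 3 alone, and after the GC offset it was 0.45 and did not pass (edgeR adjusted p-value 0.0508). For KO 4 to KO 6 it was 0.74 and, with the GC offset, 0.55, called in both (edgeR adjusted p-values 5.39e-06 and 5.19e-05). Atp2b3, which is X-linked and named outside the rule for named genes after its values were seen, had a log2 fold change of 0.50 (edgeR adjusted p-value 0.0443), and 0.37 after the GC offset, where it did not pass (edgeR adjusted p-value 0.0860), and for KO 4 to KO 6 with the GC offset it was 0.41 and called (edgeR adjusted p-value 0.00734). The widely expressed pump Atp2b1, likewise named after its values were seen, was at 0.26 and not called (edgeR adjusted p-value 0.115), but after the GC offset it was at 0.40 and called (edgeR adjusted p-value 0.0465). Over the 4 pumps, DESeq2 called 3 higher (background 15.5%), limma voom 4 (background 40.9%) and edgeR with the GC offset 1 (background 6.55%).

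Some markers of other cell types were also called in KO by edgeR, where 4.74% of all genes were called higher and 2.84% lower. Of 6 amacrine, 6 bipolar, 8 ganglion cell, 7 pigment epithelium, 11 lens and 3 blood markers, 0 were called. Of 6 Muller glia markers 1 was higher (Vim, 1.18 in log2 fold change), with a summed level of 3597 to 3802 CPM in WT and 3884 to 5445 CPM in KO. Of 6 microglia markers 2 were higher (Csf1r 0.69 and Tmem119 0.94), summing to 27.5 to 30.1 CPM in WT and 33.3 to 47.2 CPM in KO. Of 4 endothelial markers 1 was higher (Kdr, 0.92), summing to 136 to 143 CPM in WT and 186 to 282 CPM in KO. Of 3 horizontal cell markers 1 was lower (Calb1, -0.49), summing to 100.6 to 106.2 CPM in WT and 65.0 to 96.8 CPM in KO. The part of these cell types in the values of the pumps and exchangers was not tested.

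**Figure D5:**
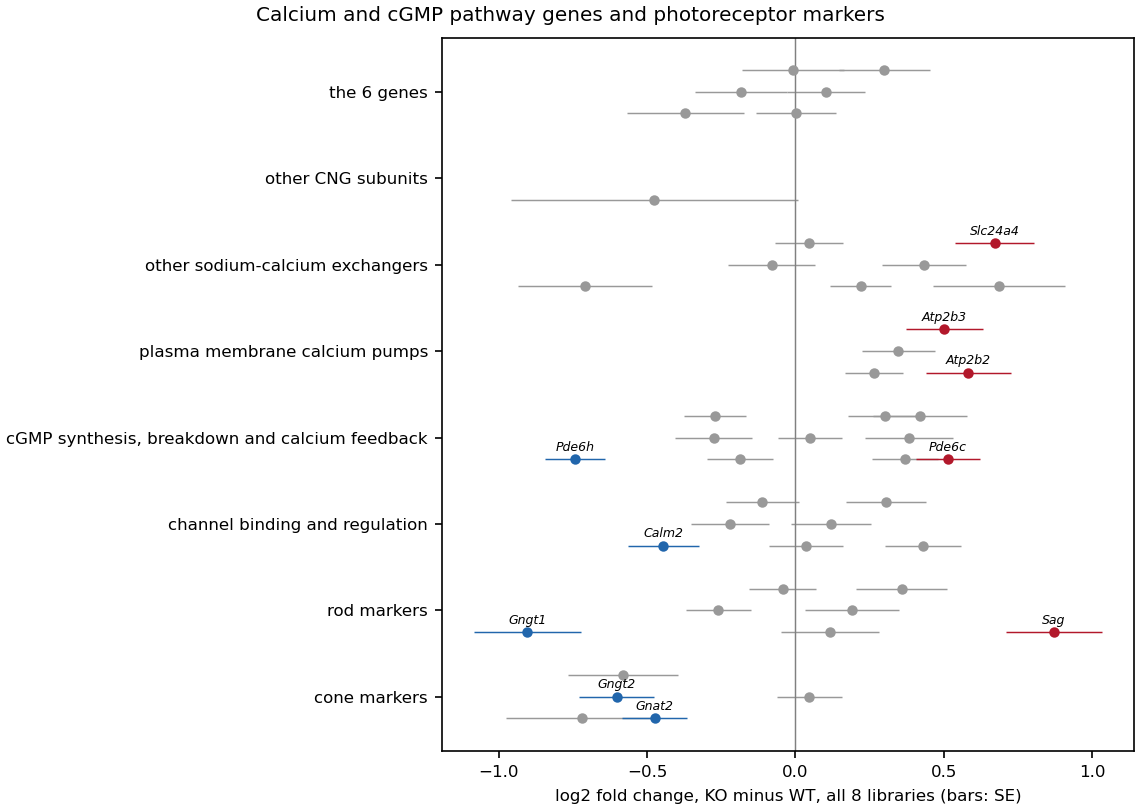
Log2 fold change of KO against WT with all 8 libraries (horizontal axis, bars show the SE) for the 6 genes, the 5 lists of pathway genes and the rod and cone markers, each point a gene, with called genes in red (higher) or blue (lower) and named. None of the 6 genes is called, and the called exchanger and pumps lie at 0.50 to 0.67.

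Of the 10 genes that make, break down or sense cyclic GMP and calcium, 1 rose, 1 fell and 8 did not pass in edgeR (4.74% and 2.84% over all genes), with a median log2 fold change of 0.17. On the same libraries DESeq2 called 4 higher and 2 lower (background 15.5%), limma voom 5 and 3 (background 40.9%), and edgeR with the GC offset 1 and 3 (background 6.55%). Both genes called by edgeR encode subunits of the cone phosphodiesterase, the enzyme that breaks down cyclic GMP. The catalytic subunit Pde6c was at 88.6, 92.0 and 91.8 CPM in WT and at 141, 110, 126, 149 and 122 CPM in KO 2 to KO 6, all above WT, with a log2 fold change of 0.51 (edgeR adjusted p-value 0.0251). The inhibitory subunit Pde6h was at 142, 162 and 144 CPM in WT and at 87.0, 87.5, 96.6, 98.9 and 75.8 CPM in KO, all below WT, with a log2 fold change of -0.74 (edgeR adjusted p-value 0.00478). Pde6h was also called in KO 2 and KO 3 alone (-0.77, edgeR adjusted p-value 0.0164), and Pde6c was not (0.47, edgeR adjusted p-value 0.102). Of the 7 genes that bind or regulate the channel, edgeR called 0 higher and 1 lower (4.74% and 2.84% over all genes). The gene called was Calm2, one of the calmodulin genes, with a log2 fold change of -0.44 (edgeR adjusted p-value 0.0494). After the GC offset it was -0.22 and not called (edgeR adjusted p-value 0.167). Among these genes DESeq2 called 1 higher and 1 lower (background 15.5%), and limma voom 2 and 1 (background 40.9%). Of the olfactory subunits, Cnga4 was at 4 to 17 counts per library and did not pass, and Cnga2 was not analysed here.

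These pathway calls rested on single libraries to different degrees. When each of the 8 libraries was left out in turn, Pde6h was called in 8 of 8 fits, with edgeR adjusted p-values of 0.00231 to 0.0429. Slc24a4 was called in 4 of 8 and lost without WT 1, WT 2, KO 4 or KO 5 (log2 fold change 0.60 to 0.79, largest edgeR adjusted p-value 0.119). Pde6c was called in 3 of 8 and lost without any WT library, KO 4 or KO 5 (0.46 to 0.57, largest edgeR adjusted p-value 0.121). Atp2b2, Atp2b3 and Calm2 were called in 2 of 8 each, and only without KO 2 or KO 3, with largest edgeR adjusted p-values of 0.168, 0.181 and 0.221. Each of these genes kept its sign in all 8 fits.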

How the data were processed

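RNA sequencing libraries of mouse retina, 3 WT and 5 KO, were read from the table of gene counts deposited by the authors, in which the values are whole numbers and every gene has at least 16 counts in total. The submitters' processing notes name Trim Galore, Salmon 1.10.2, DESeq2 and the build GRCm38, with no roles, and since Salmon estimates counts these may be rounded estimates. The annotation release and strand setting are not given in the sources used here. Counts were scaled by TMM and filtered by filterByExpr in edgeR 4.0.16 (R 4.3.3), and tested over all 20167 genes kept with glmQLFit and glmQLFTest, with Benjamini-Hochberg adjustment and a threshold of 0.05. Intervals of fold changes are 95% intervals from the quasi-likelihood fit. Tests of ratios were exact permutation tests in scipy 1.17.1, on counts plus 0.5. Gene positions, lengths and GC content come from GENCODE M21, matched by identifier for 22121 of 26824 genes. The GC offset was a natural spline with 5 degrees of freedom per library, fitted on genes of mean log2 CPM of at least 1 and passed to edgeR as offsets.

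Alternatives were DESeq2 1.42.0, limma voom 3.58.1 with library weights, other scalings and filters, offsets for GC content or length, and fits without each library, each pair of KO libraries, KO 2 and KO 3, or KO 4 to KO 6. The members and gene lists were chosen with earlier results of these data known. Named genes were the 6 members, called genes of the pathway lists other than sex-linked ones, and the 2 genes of most alike profile for each member. No 2 libraries agreed within sampling noise (chi-square per degree of freedom of at least 5.38). The test was tried on simulated data with known changes. The 31-base words were compared on both strands of all transcripts. One marker is not reported here by itself.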

Additional observations from a re-analysis of the deposited data

Results flagged for a closer look

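Among 17 values examined over the 5 KO libraries, 3 had 1 library set off by more than 0.71 of the group's range. Chance, at about 1 group in 20, gives about 0.85 for independent values. These values share genes and libraries, so an excess over chance cannot be read from the count. For Cnga1, KO 2 was highest and the gap to the next library was 0.839 of the range of log2 CPM. For Slc24a1, KO 2 was again highest, with a gap of 0.744. For Cngb1, KO 3 was lowest, with a gap of 0.767. KO 2 had the highest summed level of the rod marker list (50490 CPM) and KO 3 the lowest (34020 CPM), and lens markers took 4.46% of the counts of KO 3. The ratios of these genes to the rod markers, and to each other, had no gap past this limit. For Slc24a1 over rod markers KO 2 was still highest, at -0.187 against -0.751 to -0.579 in KO 3 to KO 6.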

How the results depend on the processing

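Over 6 genes and 33 alternative fits each, 188 of 198 fold changes kept their side of the threshold. The other 10 passed it. For KO 4 to KO 6 against WT these were Cnga1 (-0.30), Cngb1 (0.21), Cnga3 (0.39) and Cngb3 (-0.64), and with the GC offset on those libraries Slc24a1 (-0.14). With limma voom they were Cnga1 (-0.25), Cnga3 (0.43) and Cngb3 (-0.51), and without KO 2 they were Cnga1 (-0.32) and Cngb3 (-0.53), in a fit that called 13.9% of all genes. Over the fits that left out 1 library, or 2 KO libraries other than KO 2 with KO 3, Cnga1 ranged from -0.324 to -0.079 and Cngb3 from -0.531 to -0.185.

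The number of called genes was 3127 with DESeq2, 8248 with limma voom, 180 for KO 2 and KO 3 (156 with the GC offset), 8420 for KO 4 to KO 6 (5906 with the GC offset) and 118 to 3993 when 1 library, or 2 KO libraries other than KO 2 with KO 3, were left out. Scaling by library size alone gave 567 higher and 787 lower calls (41.9% higher), against 956 and 573 (62.5%) with TMM. Libraries numbered 2 and 3 occur in both groups, but the labels do not pair them, and deviations of same-numbered libraries correlated at -0.19. With the replicate block, these 4 libraries gave 52 calls, against 14 with no block and 524 with the pairing crossed, and 0 of the 6 genes were called under the block or without it.

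Ratios for KO 2 and KO 3 alone, with the GC-corrected value second, differed from WT by 0.024 and 0.17 for Cnga1 over Cngb1, 0.21 and 0.036 for Cnga3 over Cngb3, 0.067 and 0.092 for Slc24a2 over Cnga3, -0.050 and -0.11 for Cngb1 over rod markers, 0.59 and 0.75 for Cngb3 over cone markers, and 0.87 and 0.88 for Slc24a2 over cone markers. GC-corrected values for these libraries were 0.054 for Slc24a1 over Cnga1, 0.091 for Cnga3 over Cnga1 and 0.066 for Cnga1 over rod markers. Over all libraries, Cngb1 over rod markers was 0.40 with the list median and, in the other direction, -0.11 after GC correction, and Cngb3 over cone markers was 0.46 after GC correction. No ratio moved beyond its spread when 1 library was left out, with ranges of 0.646 to 0.927 for Cnga3 over cone markers, -0.093 to 0.195 for Cngb3 over cone markers, whose sign thus turned, -0.431 to -0.186 for Slc24a2 over Cnga3 and 0.014 to 0.085 for Cngb1 over rod markers. The cause of these shifts was not tested beyond the GC correction. Alternatives with GC-corrected ratios, the crossed pairing and the GC offset without KO 2 and KO 3 were chosen after seeing the data. Cnga3 and Cngb3 rest on 179 to 564 counts a library.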
